A study of Homo sapiens with 12 samples.

Results

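The Wnt members described here are 45 genes that encode Wnt ligands, their receptors, secreted antagonists and the intracellular genes that carry or damp the signal. They were taken from the 59248 rows of the deposited gene tables by matching each Ensembl identifier to its symbol in GENCODE 44 (GRCh38), and all 45 symbols had a row. The members comprise 10 ligands, 10 frizzled receptors, 6 other receptors of the cell surface (co-receptors below), 7 secreted antagonists and 12 intracellular or feedback genes. The RNA came from SJSA-1, an established human osteosarcoma cell line. The sh1 group (6 libraries) stably expressed a short hairpin RNA against RUNX2, the transcription factor needed for osteoblast differentiation, and the shNC group (6 libraries) expressed a scrambled hairpin. Both groups carried the same lentiviral vector with EGFP and puromycin resistance and had been selected with puromycin, and no cloning step is described. A single hairpin, picked by the authors as the most effective against RUNX2, was compared with a single control hairpin. Whether the 6 libraries of a group came from separate cultures is not stated, and the p-values therefore rest on a spread between libraries that may be technical only.

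Wnt proteins are secreted lipid-modified ligands that bind a frizzled receptor together with a co-receptor. In the canonical branch, the co-receptors LRP5 and LRP6 take part, a complex built on AXIN1 and APC stops degrading beta-catenin, and beta-catenin then acts with TCF and LEF factors in the nucleus. In the other branches, receptor tyrosine kinases such as ROR1 and ROR2 respond to WNT5A and related ligands without stabilising beta-catenin. DKK1 and SOST block LRP5 and LRP6, whereas SFRP and WIF1 proteins bind Wnt ligands. In bone, canonical Wnt signalling promotes osteoblast formation, loss of LRP5 lowers bone mass, and DKK1 and SOST restrain bone formation.

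The total gene count ranged from 11239638 to 16346022 in the sh1 libraries and from 15328312 to 19992974 in the shNC libraries. The library with the lowest total, sh1 replicate 3, also had the largest share of counts in rows without an Ensembl identifier (1.23%, against 0.468% to 0.576% in the other 11 libraries), so counts of members are given with and without it. RUNX2, the targeted gene, lay between 2.65 and 3.36 FPKM (fragment counts scaled by gene length and library total) in sh1 and between 4.34 and 5.68 FPKM in shNC. Its log2 fold change was -0.69 (SE 0.076, adjusted p = 4.6e-06 by the quasi-likelihood test of edgeR), and an exact two-sided permutation test over the 12 libraries gave p = 0.0022, the smallest value that 6 against 6 allows. Of 12 osteoblast markers, 5 averaged at least 1 FPKM in sh1 and 4 in shNC, and their summed level was 422 to 549 FPKM in sh1 and 284 to 336 FPKM in shNC, most of it SPARC. The defining osteoblast markers SP7, ALPL and IBSP had at most 3 counts in a whole group. Both MDM2 and CDK4, known to be amplified in this line, were at 37.0 FPKM or more in every library. MDM2 was at 74.4 to 93.5 FPKM in sh1 and 60.8 to 77.5 FPKM in shNC (log2 fold change 0.30, adjusted p = 0.0042 from edgeR). CDK4 did not pass the test (log2 fold change -0.04). Markers of leukocytes (6 genes) summed to at most 0.309 FPKM in sh1 and 0.466 FPKM in shNC, and those of adipocytes (4 genes) to at most 0.506 FPKM in sh1 and 1.12 FPKM in shNC. Markers of epithelium, neural cells and osteocytes summed to at most 1.34, 1.12 and 0.824 FPKM in sh1 and to at most 1.97, 0.931 and 0.901 FPKM in shNC. Of 5 endothelial markers, TIE1 alone averaged at least 1 FPKM, and the list summed to 14.1 to 18.6 FPKM in sh1 and 19.1 to 25.4 FPKM in shNC, with CDH5, VWF and CLDN5 at or below 0.183 FPKM in every library. Of 6 chondrocyte markers, SOX9 alone averaged at least 1 FPKM (list sums of 24.4 to 27.3 FPKM in sh1 and 40.3 to 48.1 FPKM in shNC). The ranges of the osteoblast, endothelial and chondrocyte sums did not overlap between the groups. Single markers moved in other lists and beside SPARC too. COL1A1, the main collagen of bone, was at 0.879 to 1.96 FPKM in sh1 and 0.387 to 0.811 FPKM in shNC (log2 fold change 1.49, adjusted p = 2.3e-05 from edgeR), the neural marker GFAP at 0.126 to 0.179 FPKM in sh1 and 0.0524 to 0.124 FPKM in shNC (0.88, adjusted p = 0.0033), and the epithelial marker CLDN4 at 0.606 to 1.07 FPKM in sh1 and 0.836 to 1.78 FPKM in shNC (-0.58, adjusted p = 0.029). The part of these markers in the results on Wnt members was not tested. In bulk RNA, a change in the number of cells of a kind and a change in RNA per cell cannot be told apart.

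The Wnt ligand WNT9A, the receptor FZD8 and the antagonists DKK1 and SFRP1 were lower in sh1 by more than 2-fold, while the receptor kinase ROR1 was higher by close to 2-fold. LRP5, LRP6, ROR2, FZD2 and beta-catenin (CTNNB1) were higher by smaller amounts. Of the 45 members, 34 passed the filter on low counts (edgeR's filterByExpr) and 11 did not. At an adjusted p under 0.05 by this test, 6 of the 34 were higher (12.8% of all 16489 genes tested were) and 4 were lower (13.3% of all), together 29.4% against 26.1% of all genes. The share of called genes among the members was thus near that of all genes. At a fold change of at least 2, 4 members were lower (11.8% of the 34, against 0.885% of all genes tested) and 0 were higher (1.20% of all genes). ROR1 fell just short of that fold with a log2 fold change of 0.997, and SFRP1 just passed it with -1.041. The 95% interval of SFRP1 was -1.23 to -0.85, and leaving out any 1 library gave -1.07 to -0.96. In 8 of the 34 members the FPKM values of the groups did not overlap (23.5%, against 11.9% of all genes), 4 of them higher (6.28% of all genes) and 4 lower (5.62% of all). The members were chosen with earlier results of these data known, so these shares are a description and not a test of the list. The median log2 fold change was 0.03 over the tested members and -0.004 over all tested genes, and the median absolute value 0.17 and 0.16. Without sh1 replicate 3, 6 members were again called higher and 4 lower, but the higher ones then included TCF7L2 in place of ROR2.

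**Figure D1:**
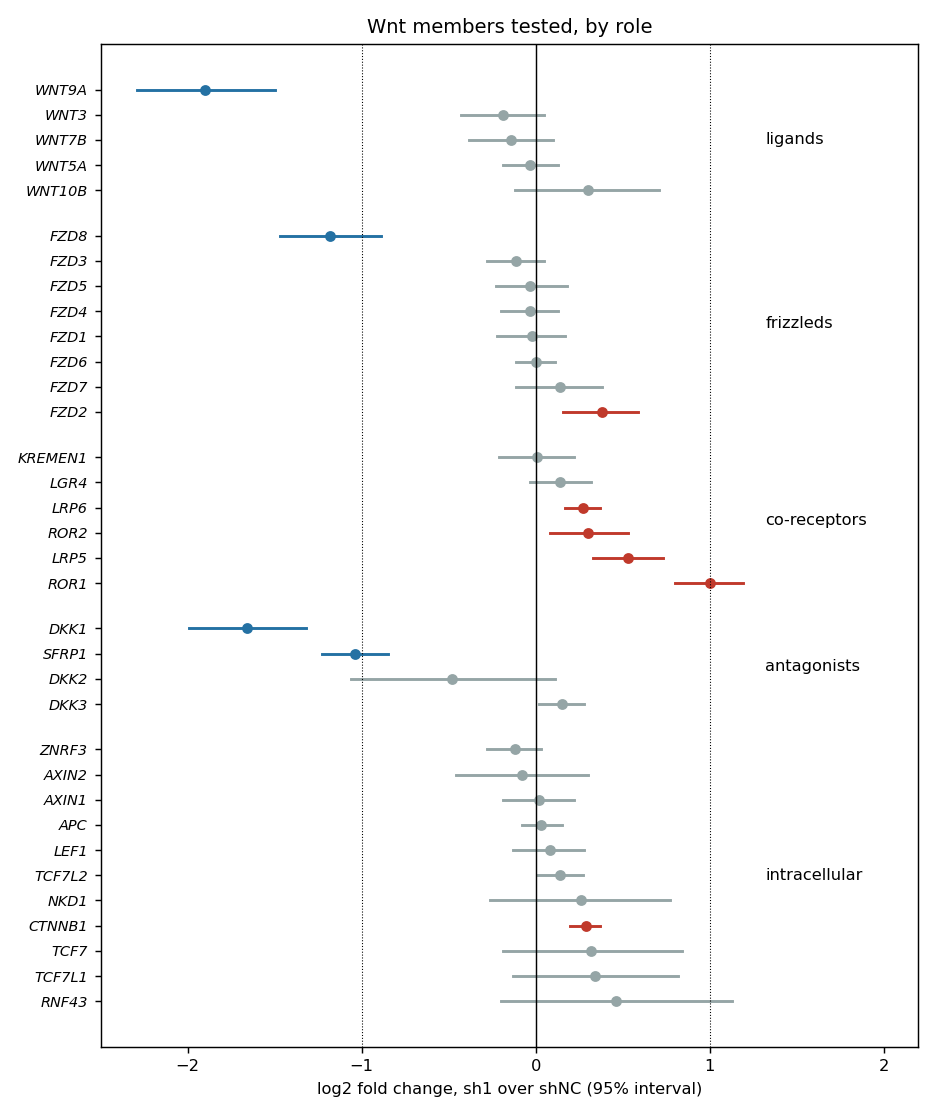
Log2 fold change, sh1 over shNC, of the 34 tested Wnt members by role, with points for the estimate and lines for the 95% interval from edgeR. Red members were higher and blue members lower at an adjusted p under 0.05, grey members did not pass, and dotted lines mark a 2-fold change. WNT9A (-1.90), DKK1 (-1.66), FZD8 (-1.18) and SFRP1 (-1.04) lie left of the lower line. Red marks 4 of the 6 co-receptors (66.7% called, against 26.1% of all genes tested).

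The 250 bases before the annotated transcription start of WNT9A, FZD8, DKK1 and ROR1 are shown because these genes are among the members that changed most and were in the RefSeq promoter table (GRCh38.p14), in which 29 of the 45 members were found. Capitals mark the TATA box core TATAAA and the GC box core GGGCGG on either strand, motifs chosen after the values had been seen. WNT9A lies on the minus strand (chr1:227947933-227948182), FZD8 on the minus strand (chr10:35642297-35642546), DKK1 on the plus strand (chr10:52314031-52314280) and ROR1 on the plus strand (chr1:63773767-63774016).
WNT9A: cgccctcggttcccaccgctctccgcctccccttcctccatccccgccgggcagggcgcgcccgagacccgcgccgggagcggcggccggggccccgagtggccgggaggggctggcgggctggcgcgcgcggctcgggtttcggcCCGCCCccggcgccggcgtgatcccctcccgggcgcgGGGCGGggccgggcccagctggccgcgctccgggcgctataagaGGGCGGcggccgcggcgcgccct
FZD8: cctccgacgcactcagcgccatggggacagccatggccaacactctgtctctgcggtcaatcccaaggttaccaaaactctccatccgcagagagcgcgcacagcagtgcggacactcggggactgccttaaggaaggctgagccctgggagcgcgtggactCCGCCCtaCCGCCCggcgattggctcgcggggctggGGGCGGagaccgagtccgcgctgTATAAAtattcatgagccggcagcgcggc
DKK1: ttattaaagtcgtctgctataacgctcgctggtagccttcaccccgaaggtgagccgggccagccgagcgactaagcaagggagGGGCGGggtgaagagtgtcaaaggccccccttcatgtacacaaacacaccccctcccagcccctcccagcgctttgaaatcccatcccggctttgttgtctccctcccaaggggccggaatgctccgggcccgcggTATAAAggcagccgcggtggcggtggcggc
ROR1: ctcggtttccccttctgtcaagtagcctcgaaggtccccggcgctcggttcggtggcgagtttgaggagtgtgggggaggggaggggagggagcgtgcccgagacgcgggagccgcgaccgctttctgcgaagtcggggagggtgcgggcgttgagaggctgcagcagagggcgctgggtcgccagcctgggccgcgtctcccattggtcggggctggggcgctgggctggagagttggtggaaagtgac
The window of FZD8 holds TATAAA 29 bases and that of DKK1 30 bases before the start, the usual place of a TATA box. Those of WNT9A and ROR1 hold no exact match to TATAAA. Near matches were not searched for, and the WNT9A window holds TATAAGA close to the start. GC box cores number 3 in WNT9A, 3 in FZD8, 1 in DKK1 and 0 in ROR1, and the GC content is 84.4%, 65.2%, 62.8% and 69.2%. In windows of 300 bases that add the first 50 transcribed bases, TATAAA occurs in 11.5% and GGGCGG in 45% of all 35116 promoters. The RUNX core TGTGGT (13.1% of all promoters, either strand) occurs in none of these 4 windows, which says only that these letters are not in this stretch. Other forms of this core were not searched for, and the FZD8 window holds the near match TGCGGT.

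Of the 10 ligands, 5 passed the filter, 1 was lower and 0 were higher (of all genes tested, 13.3% were lower and 12.8% higher). WNT9A, a ligand that takes part in joint formation in mice, is encoded on chromosome 1 from 227918656 to 227947932 on the minus strand. It was at 0.291, 0.386 and 0.512 FPKM (lowest, median and highest library) in sh1 and at 0.906, 1.47 and 2.17 FPKM in shNC. Every sh1 library lay below every shNC library. The log2 fold change was -1.90 (SE 0.19, 95% interval -2.29 to -1.5, adjusted p = 1.4e-06 from edgeR), a level 26.9% of that in shNC. Its counts were low, 13 to 33 in a sh1 library, and on the log2(FPKM + 1) scale with limma, which understates changes of low genes, the difference was -0.83. WNT3A, a canonical ligand that lies 59065 bp from WNT9A on the same chromosome, had 0 counts in all 12 libraries. That allows a level of up to 0.0336 CPM over the sh1 libraries and 0.0285 CPM over the shNC libraries (3 counts of the group's total, covering counting error only).

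WNT5A, the main ligand of the ROR receptors, was the most abundant ligand in every library. It was at 7.10, 7.65 and 8.87 FPKM in sh1 and at 6.76, 7.64 and 9.22 FPKM in shNC, so the groups overlapped over nearly their whole range. Its log2 fold change was -0.03 (95% interval -0.19 to 0.13, adjusted p = 0.80 from edgeR). WNT7B and WNT3, both able to act through beta-catenin, followed at medians of 2.06 and 1.54 FPKM in sh1 and 2.17 and 1.75 FPKM in shNC. Their log2 fold changes of -0.14 (interval -0.38 to 0.10) and -0.19 (interval -0.43 to 0.05) did not pass the test, nor did that of WNT10B, a ligand that favours osteoblasts over adipocytes in mice (0.30, interval -0.12 to 0.71). The ligands WNT4, WNT5B, WNT10A and WNT11 did not pass the filter, with 38, 12, 2 and 0 counts summed over the sh1 libraries and 54, 6, 14 and 2 over the shNC libraries.

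Each library's ligand FPKM can be summed to show which ligand dominated. WNT5A held 54.4% to 68.7% of the sum in sh1 and 53.5% to 57.3% in shNC. WNT9A held 2.34% to 4.08% in sh1 and 7.33% to 14.4% in shNC, and these ranges did not overlap. The sum itself was 12.3 to 13.0 FPKM in sh1 and 12.4 to 16.1 FPKM in shNC, with overlap at the low end.

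**Figure D2:**
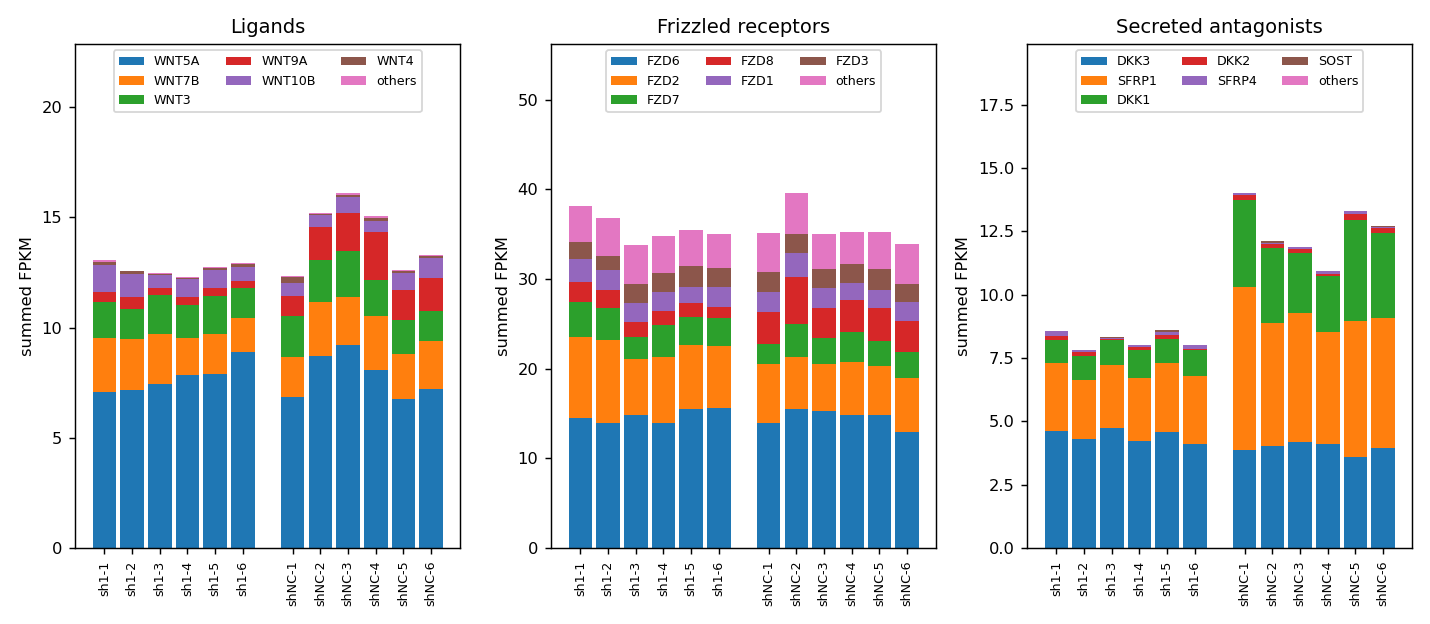
Summed FPKM of Wnt ligands (left), frizzled receptors (middle) and secreted antagonists (right) in each library, with sh1 libraries to the left of shNC libraries and colours for the members with the highest levels. The antagonist sums lie between 7.83 and 8.6 FPKM in sh1 and between 10.9 and 14.0 FPKM in shNC, whereas the frizzled sums cover 33.8 to 38.2 FPKM in sh1 and 33.9 to 39.5 FPKM in shNC.

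Of the 10 frizzled receptors, 8 passed the filter, with FZD2 higher and FZD8 lower (25.0% called, against 26.1% of all genes tested). FZD8 (chromosome 10, 35638247 to 35642296, minus strand) was at 1.23, 1.61 and 2.23 FPKM in sh1 and at 3.33, 3.59 and 5.24 FPKM in shNC. No library of sh1 reached the shNC range, in which replicate 2 stood highest. The log2 fold change was -1.18 (SE 0.14, interval -1.47 to -0.89, adjusted p = 7.0e-06 from edgeR), and leaving out any 1 library kept it between -1.26 and -1.06. FZD2 (chromosome 17, 44557484 to 44561262, plus strand), which also serves WNT5A signalling, was at 6.23, 7.24 and 9.25 FPKM in sh1 and at 5.21, 5.87 and 6.63 FPKM in shNC. The groups overlapped, since sh1 replicate 3 at 6.23 FPKM lay below the highest shNC library. Its log2 fold change was 0.38 (SE 0.10, adjusted p = 0.010 from edgeR).

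FZD6, a frizzled linked to planar cell polarity in mice, was the most abundant receptor of the family and carried 38.0% to 44.5% of the frizzled FPKM in sh1 and 38.4% to 43.8% in shNC. It was at 14.0, 14.7 and 15.6 FPKM in sh1 and at 13.0, 14.8 and 15.5 FPKM in shNC. The log2 fold change was 0.0013 with a 95% interval of -0.11 to 0.11. FZD1, FZD3, FZD4, FZD5 and FZD7 had medians of 1.95 to 3.31 FPKM in sh1 and 2.05 to 2.89 FPKM in shNC and log2 fold changes from -0.11 (FZD3) to 0.14 (FZD7), none past the test. FZD9 and FZD10 did not pass the filter, with 12 and 1 counts in sh1 and 21 and 0 in shNC. FZD8 held 3.52% to 5.84% of the frizzled sum in sh1 and 9.49% to 13.3% in shNC, and FZD2 held 18.4% to 25.1% in sh1 and 14.6% to 18.8% in shNC. Within a library, FZD2 was 3.77 to 5.65 times as high as FZD8 in sh1 and 1.1 to 1.84 times as high in shNC.

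All 6 co-receptors passed the filter, 4 were higher, 0 were lower and 2 did not pass the test. That is 66.7% called, against 26.1% of all genes tested, with a median log2 fold change of 0.29. ROR1 (chromosome 1, 63774017 to 64181498, plus strand), a receptor tyrosine kinase that is mostly embryonic and is re-expressed in several cancers, was at 5.66, 7.57 and 8.03 FPKM in sh1 and at 2.96, 3.62 and 4.21 FPKM in shNC. The lowest sh1 library, replicate 3, still exceeded the highest shNC library. The fold change was 2.00 (log2 SE 0.091, interval 0.80 to 1.19, adjusted p = 5.8e-07 from edgeR), and leaving out any 1 library gave a log2 fold change of 0.96 to 1.07.

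LRP5 (chromosome 11, 68312591 to 68449275, plus strand) was at 8.49, 9.46 and 12.6 FPKM in sh1 and at 5.46, 6.52 and 7.80 FPKM in shNC. Its paralog LRP6 (chromosome 12, 12116025 to 12267044, minus strand) was at 10.7, 11.8 and 12 FPKM in sh1 and at 8.83, 9.59 and 9.83 FPKM in shNC. For both co-receptors of the canonical branch, all sh1 libraries lay above all shNC libraries. The log2 fold change was 0.53 for LRP5 (SE 0.094, adjusted p = 0.00044 from edgeR) and 0.27 for LRP6 (SE 0.047, adjusted p = 0.00042). In LRP5, sh1 replicate 1 stood above the other sh1 libraries, and leaving out any 1 library gave a log2 fold change of 0.46 to 0.58. The ratio of LRP6 to LRP5 was 0.854 to 1.39 in sh1 and 1.13 to 1.78 in shNC, with overlap.

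ROR2, the second ROR kinase, was at 1.18, 1.30 and 1.46 FPKM in sh1 and at 0.780, 1.07 and 1.24 FPKM in shNC. The groups overlapped, and the log2 fold change of 0.30 (SE 0.11, adjusted p = 0.043 from edgeR) was close to the threshold. It passed in 3 of the 12 fits that left out 1 library (adjusted p from 0.019 to 0.089) and did not pass with the replicate number as a block (adjusted p = 0.084). ROR1 exceeded ROR2 by 4.20 to 6.35 times in sh1 and 2.88 to 4.25 times in shNC. LGR4, the receptor for R-spondins, and KREMEN1, a receptor for DKK proteins, did not pass the test (log2 fold changes 0.14, interval -0.03 to 0.32, and 0.01, interval -0.21 to 0.22). Summed over the 6 genes, the co-receptor level was 34.7 to 40.5 FPKM in sh1 and 26.5 to 28.4 FPKM in shNC.

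Of the 7 secreted antagonists, 4 passed the filter, 2 were lower and 0 were higher (of all genes tested, 13.3% were lower and 12.8% higher). Whether these 4 genes differ as a set from all genes was not tested. DKK1 (chromosome 10, 52314281 to 52318042, plus strand), which blocks LRP5 and LRP6, was at 0.891, 0.962 and 1.11 FPKM in sh1 and at 2.19, 3.14 and 3.99 FPKM in shNC. The sh1 values were close together and all below the shNC values, which varied more. The log2 fold change was -1.66 (SE 0.16, interval -1.99 to -1.32, adjusted p = 9.4e-07 from edgeR), a level 31.7% of that in shNC. SFRP1 (ENSG00000104332), which binds Wnt ligands through a frizzled-like domain, was at 2.36, 2.59 and 2.71 FPKM in sh1 and at 4.45, 5.11 and 6.43 FPKM in shNC. Again the groups did not overlap. Its log2 fold change was -1.04 (SE 0.091, interval -1.23 to -0.85, adjusted p = 3.6e-07 from edgeR).

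DKK3, a divergent DKK protein that is not an established LRP6 blocker, was at 4.09, 4.44 and 4.73 FPKM in sh1 and at 3.60, 4.00 and 4.18 FPKM in shNC. The groups overlapped slightly and its log2 fold change of 0.15 (interval 0.02 to 0.28, adjusted p = 0.089 from edgeR) did not pass. DKK3 overlaps USP47 on the opposite strand, a gene with a mean of 134 CPM against 21.3 CPM for DKK3, and the library kit is not described as marking strand. DKK2 was measured on few counts, 47 in all sh1 libraries and 76 in all shNC libraries, and its log2 fold change of -0.48 had a wide interval (-1.06 to 0.11). SFRP4 and SOST did not pass the filter (36 and 3 counts in sh1, 30 and 5 in shNC), and WIF1 had 0 counts in every library. In a sum of all antagonists, DKK3 held a median of 53.8% in sh1 and 32.3% in shNC, SFRP1 31.0% in sh1 and 40.6% in shNC, and DKK1 11.7% in sh1 and 24.5% in shNC. DKK3 was thus the most abundant antagonist in all sh1 libraries, whereas SFRP1 exceeded DKK3 in all shNC libraries by 1.09 to 1.66 times.

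**Figure D3:**
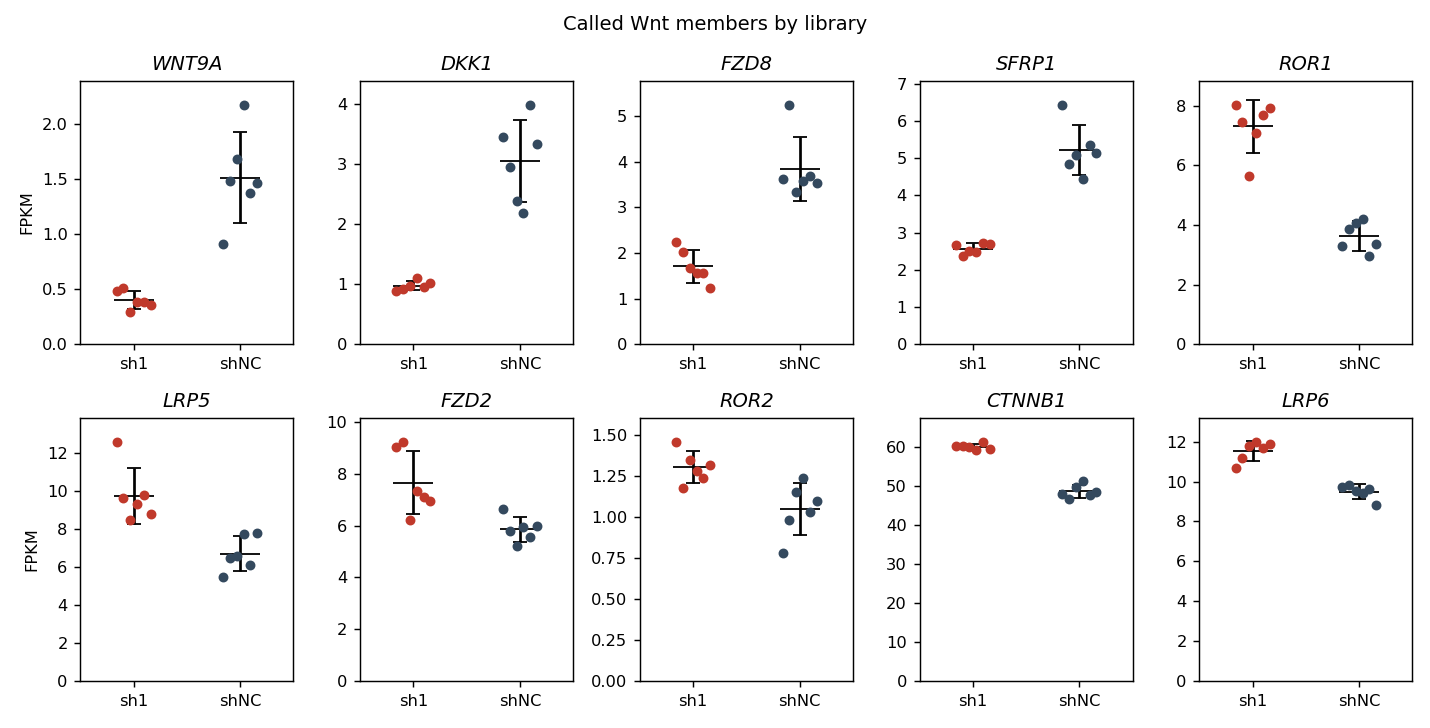
FPKM of the 10 called Wnt members in each library, with sh1 left of shNC in each panel, a point per library and a bar with the group mean and its SD (n = 6). The first 4 panels (WNT9A, DKK1, FZD8, SFRP1) show members that were lower in sh1 and the other 6 those that were higher. The groups overlap in FZD2 and ROR2 and in no other panel.

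The shNC libraries varied among themselves in several of these genes. shNC replicate 1 had the lowest WNT9A and ROR2 of its group (0.906 and 0.780 FPKM) and the highest SFRP1 (6.43 FPKM), whereas shNC replicate 4 had the highest WNT9A, ROR1 and ROR2 (2.17, 4.21 and 1.24 FPKM) and the lowest DKK1 and SFRP1 (2.19 and 4.45 FPKM). In sh1 replicate 3, WNT9A, ROR1, FZD2 and LRP5 were each at the lowest value of the group (0.291, 5.66, 6.23 and 8.49 FPKM).

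Among the 12 intracellular genes, 11 passed the filter, 1 was higher and 10 did not pass the test (9.09% called, against 26.1% of all genes tested). CTNNB1 (chromosome 3, 41194741 to 41260096, plus strand), which encodes beta-catenin, was at 59.3, 60.1 and 61.4 FPKM in sh1 and at 46.7, 48.2 and 51.4 FPKM in shNC. The groups did not overlap, and the sh1 libraries differed from each other by little. Its log2 fold change was 0.29 (SE 0.040, adjusted p = 4.7e-05 from edgeR), 1.22-fold, and stayed between 0.29 and 0.31 in all 24 alternatives. The data give RNA only, and the amount or phosphorylation of the beta-catenin protein was not analysed here. CTNNB1 overlaps ULK4 on the opposite strand, at 6.83 CPM against 650 CPM for CTNNB1.

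The scaffold genes APC and AXIN1, needed to degrade beta-catenin, had log2 fold changes of 0.03 (interval -0.08 to 0.15) and 0.02 (interval -0.19 to 0.22). Of the nuclear partners of beta-catenin, TCF7L2 was the most abundant, at 5.85, 7.08 and 7.37 FPKM in sh1 and 5.57, 6.32 and 6.61 FPKM in shNC, and its log2 fold change of 0.14 did not pass (adjusted p = 0.12 from edgeR). Without sh1 replicate 3, the lowest sh1 library for this gene, it passed (log2 fold change 0.19, adjusted p = 0.016). LEF1 stood at medians of 2.11 FPKM in sh1 and 2.03 FPKM in shNC (log2 fold change 0.08, interval -0.13 to 0.28). TCF7 and TCF7L1 lay below 0.5 FPKM in every library.

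AXIN2, NKD1, NKD2, RNF43 and ZNRF3 are inhibitors of the pathway, and AXIN2, RNF43 and ZNRF3 are widely used as readouts of canonical signalling because beta-catenin induces them in many tissues. ZNRF3 was the only one above 1 FPKM, at 2.36, 2.49 and 2.82 FPKM in sh1 and at 2.43, 2.69 and 3.21 FPKM in shNC, a log2 fold change of -0.12 (interval -0.28 to 0.03). AXIN2 was at 0.220, 0.260 and 0.389 FPKM in sh1 and at 0.225, 0.290 and 0.373 FPKM in shNC, and its log2 fold change of -0.08 had an interval of -0.46 to 0.30. NKD1 (0.26, interval -0.26 to 0.77) and RNF43 (0.46, interval -0.20 to 1.13) were measured on fewer than 150 counts per group, and changes within these intervals were not excluded. NKD2 did not pass the filter. RNF43 overlaps TSPOAP1-AS1 on the opposite strand, which was higher (log2 fold change 0.77, adjusted p = 0.0064 from edgeR).

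In all, 24 tested members did not pass, with log2 fold changes from -0.48 to 0.46. For 18 of them the 95% interval stayed within 0.5 on either side of 0. The other intervals reached from -1.06 (DKK2) to 1.13 (RNF43). Of the 34 tested members, 7 overlap another tested gene on the opposite strand, and next to those named above these are WNT5A, FZD6, FZD4 (PRSS23, at 492 CPM against 14.6 CPM) and TCF7 (SKP1, at 123 CPM against 1.24 CPM). These overlaps are of whole gene spans, introns included, and shared exons were not examined. Without strand, reads from sequence shared by both genes of a pair cannot be assigned to either.

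Other genes of the pathway came from lists that hold 129 genes outside the members, of which 90 were tested. Of these, 20 were higher, 10 were lower and 60 did not pass, and 0 changed by 2-fold or more (33.3% called, against 26.1% of all genes). The median log2 fold change was 0.08. These lists, too, were chosen with earlier results of these data known. Among 9 tested receptors and membrane proteins, 4 were higher and 0 were lower (44.4% called). RECK, which helps cells respond to WNT7A and WNT7B, was at 3.78, 4.56 and 4.86 FPKM in sh1 and at 2.50, 2.61 and 3.09 FPKM in shNC (log2 fold change 0.69, SE 0.079). GPC6, a cell surface glypican, was at 4.17, 4.83 and 5.95 FPKM in sh1 and at 2.57, 2.85 and 3.93 FPKM in shNC (0.64, SE 0.10). In both genes the groups did not overlap. The third of the higher genes, PTK7, a pseudokinase of planar polarity (0.37), and the fourth, GPC4 (0.22), changed less.

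The secretion genes WLS and PORCN, which every Wnt ligand needs to leave the cell, did not pass (log2 fold changes -0.08 and 0.22), and of the 16 genes in their list 13 did not pass the filter, among them all R-spondins. Of 3 tested antagonists outside the members, TRABD2A, a protease that inactivates Wnt ligands, was higher (0.27). That is 33.3% called, against 26.1% of all genes tested. SERPINF1 (-0.27, adjusted p = 0.089 from edgeR) and TRABD2B (0.24) did not pass. The groups did not overlap in SERPINF1, at 0.899 to 1.2 FPKM in sh1 and 1.22 to 1.51 FPKM in shNC. Of 22 genes of the destruction complex and cytoplasm, 3 were higher and 2 lower (22.7% called, against 26.1% of all genes tested). BTRC, the F-box protein that marks beta-catenin for degradation, was at 5.38, 5.77 and 6.05 FPKM in sh1 and at 7.47, 7.86 and 8.64 FPKM in shNC (log2 fold change -0.49, SE 0.055, adjusted p = 5.4e-06 from edgeR). It was named after its values had been seen. Of 16 nuclear co-factors, 5 were higher and 1 was lower (37.5% called). TNIK, a kinase that binds TCF7L2, was at 6.42, 7.2 and 7.57 FPKM in sh1 and at 4.35, 4.56 and 4.90 FPKM in shNC (0.61, SE 0.054, adjusted p = 4.0e-07 from edgeR).

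Of 19 genes of the planar polarity and calcium branches, 4 were higher and 2 lower, a called share of 31.6% that is near the 26.1% of all genes. PRICKLE2, a cytoplasmic polarity protein, was at 1.17, 1.24 and 1.5 FPKM in sh1 and at 0.559, 0.652 and 0.889 FPKM in shNC, a log2 fold change of 0.88 (SE 0.11). The atypical cadherins CELSR2 (0.38) and CELSR3 (0.40) and the formin DAAM2 (0.42) were also higher, with overlap between the groups, and the kinases MAPK8 (-0.26) and CAMK2G (-0.21) were lower.

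Genes that beta-catenin and TCF factors induce in other tissues moved in both directions. The members AXIN2, LEF1, TCF7, NKD1, RNF43, ZNRF3 and DKK1 also count among such genes, and of them only DKK1 was called (log2 fold change -1.66). Of 18 tested outside the members, 3 were higher, 5 were lower and 10 did not pass, so that 44.4% were called, against 26.1% of all genes tested (median -0.09). CCND1, the G1 cyclin, was at 85.6, 94.4 and 114 FPKM in sh1 and at 122, 141 and 157 FPKM in shNC (log2 fold change -0.55, SE 0.074). TNFRSF19, a receptor of the TNF family, was at 0.525, 0.671 and 0.748 FPKM in sh1 and at 1.12, 1.26 and 1.41 FPKM in shNC (-0.99, SE 0.11). TNFRSF11B (osteoprotegerin), an inhibitor of osteoclast formation, was at 0.174, 0.291 and 0.409 FPKM in sh1 and at 0.438, 0.507 and 0.851 FPKM in shNC (-0.95, SE 0.24). In these 3 genes no sh1 library reached the shNC range. CD44 (-0.30) and TBX3 (-0.22) were lower as well, while JUN (0.26), EPHB2 (0.40) and EPHB3 (0.45) were higher.

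**Figure D4:**
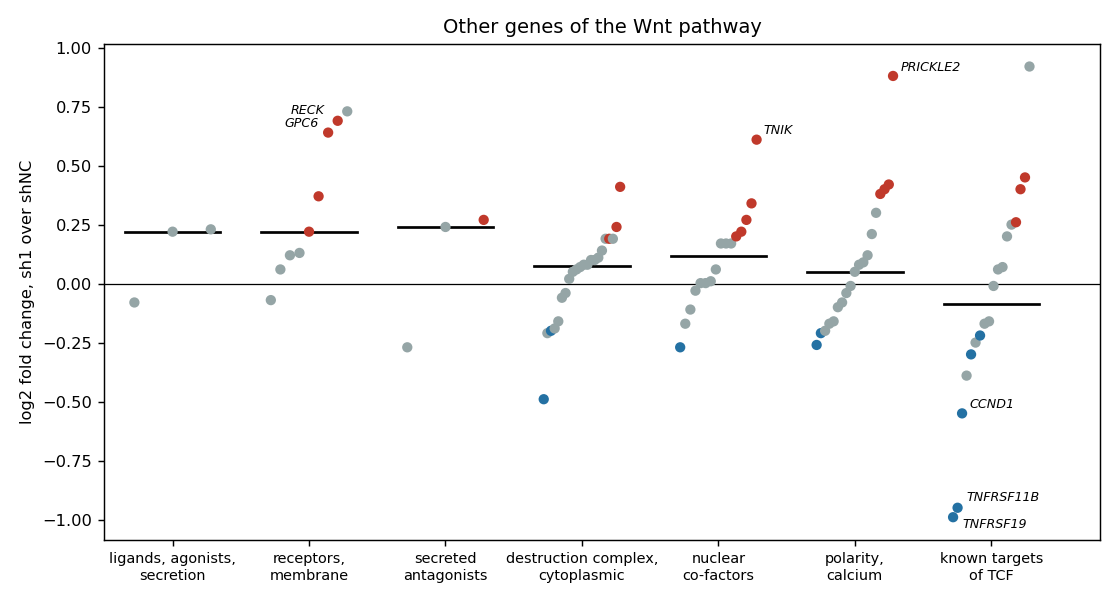
Log2 fold change, sh1 over shNC, of the 90 tested pathway genes outside the members, by list, with red for higher, blue for lower and grey for genes that did not pass an adjusted p under 0.05, and black lines for list medians. Names mark called genes that moved by 0.5 or more on the log2 scale, from TNFRSF19 (-0.99) to PRICKLE2 (0.88).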

How the data were processed

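Polyadenylated RNA from 6 sh1 and 6 shNC libraries of SJSA-1 cells was sequenced as read pairs. The authors aligned the reads to GRCh38 with HISAT2 and counted them per gene with featureCounts, and deposited raw counts. The FPKM values deposited by the authors are those counts divided by gene length and library total. Another deposited table, of counts divided by DESeq2 size factors, was not used. Versions of these tools: not given in the sources used here. The 572 rows without an Ensembl identifier are of unstated origin and stayed in the totals. Of 58676 Ensembl identifiers, 58207 were found in GENCODE 44, the source of coordinates.

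The counts of all genes were fitted together in R 4.3.3 by the quasi-likelihood functions of edgeR 4.0.16, after filterByExpr and TMM scaling, and p-values were adjusted by Benjamini-Hochberg over 16489 genes. The threshold was an adjusted p of 0.05. The SE was taken as the absolute log2 fold change over the root of the F statistic. Levels are FPKM, which allow genes to be compared per length. Alternatives were other scalings and filters, robust dispersion, DESeq2 1.42.0, limma 3.58.1 on log2(FPKM + 1) and log2(FPKM + 0.1), a replicate block and leaving out each library.

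Members and lists were chosen with earlier results of these data known. Full values are given for called members with at least 1 CPM in a group and for the most abundant member of each role, and other pathway genes are named where they passed and moved by 0.5 or more on the log2 scale. Some other genes were named after their values had been seen. The smallest library held 11239638 counts.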

Additional observations from a re-analysis of the deposited data

Results flagged for a closer look

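Single libraries far from the rest of their group (Dixon's 95% limit for 6 values, on CPM) were found in 5 of 70 groups of values checked for members and RUNX2. About 1 group in 20 passes this limit by chance, or 3.5 of the 70. FZD8 was at 21.1 CPM in shNC replicate 2, against 13.4 to 15.2 CPM in the other shNC libraries. LRP5 was at 77.2 CPM in sh1 replicate 1, against 52.0 to 60.1 CPM in the other sh1 libraries. TCF7L2 was at 39.1 CPM in sh1 replicate 3, the library with the lowest total count, against 47.3 to 49.5 CPM. LGR4 was at 32.2 CPM in sh1 replicate 2, against 37.4 to 40.2 CPM. FZD6 was at 52.8 CPM in shNC replicate 6, against 58.9 to 62.6 CPM.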

How the results depend on the processing

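Under 24 alternatives the members lower in sh1 were the same 4, and the members higher in sh1 numbered 5 or 6, of which LRP5, LRP6, ROR1, FZD2 and CTNNB1 were shared by all. ROR2 was lost without a filter (adjusted p = 0.091 from edgeR), with limma on log2(FPKM + 0.1) (0.054), with limma on unfiltered log2(FPKM + 1) (0.15), and in 9 of 12 fits that left out 1 library. Asking for a 2-fold change left 0 members higher, and 0 other pathway genes higher and 0 lower. Limma on unfiltered log2(FPKM + 1) values called 6 other pathway genes lower, against 10. Leaving out each library gave 5 to 6 members higher and 4 lower, and 18 to 24 other pathway genes higher and 7 to 10 lower. Fitted values near 0 that did not pass the test changed sign. FZD6 was at -0.00093 without a filter, and leaving out each library gave -0.06 to 0.03 for WNT5A, -0.06 to 0.06 for FZD1, -0.06 to 0.04 for FZD5, -0.03 to 0.03 for FZD6, -0.05 to 0.07 for KREMEN1, -0.05 to 0.07 for AXIN1 and -0.19 to 0.02 for AXIN2. The cause was not tested. Same-numbered libraries did not deviate together (correlations -0.162 to 0.0334, with 0 of 6 sh1 libraries closest to its own number), and the replicate block called 5 members higher and 4 lower, and 17 and 9 other pathway genes. WNT9A and DKK1 had few counts in sh1, and their fitted sizes were smallest with limma on log2(FPKM + 1), at -0.83 and -1.02.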

Other observations

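In windows of 300 bases around the transcription start (RefSeq, GRCh38.p14), the 29 members with an entry had 36 windows. The RUNX core TGTGGT, searched on both strands as an exact match, occurred in 6 of them (16.7%, against 13.1% of all 35116 windows). These were windows of WNT5A, WNT5B, FZD5, LEF1, LGR4 and RNF43. WNT5B did not pass the filter and was not tested, and the others were not called, where 26.1% of all genes tested were. Members without an entry and other forms of the core were not searched. The TCF core CTTTGAT occurred in 0 of the 36 windows and in 2.62% of all windows. GGGCGG occurred in 25 (69.4%, against 45% of all) and TATAAA in 4 (11.1%, against 11.5% of all), those of DKK1, FZD8, TCF7 and WNT5B. TATAAA and GGGCGG were chosen after the values had been seen.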
